A study of Mus musculus with 12 samples.

Results

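Peaks of N6-methyladenosine (m6A) on the RNA of 5 transcription factor genes of the neurogenic programme, Sox2, Sox4, Neurod1, Neurod2 and Bcl11b, were followed in mouse hippocampus at 2 and 6 weeks of age. A peak belonged to a gene when it overlapped that gene's window in the mm9 build. The windows were chr3:34548500-34551800 for Sox2, chr13:29040300-29046000 for Sox4, chr2:79292000-79297500 for Neurod1, chr11:98186300-98191500 for Neurod2 and chr12:109148000-109242500 for Bcl11b. In all, 130 of the 148097 deposited peaks lay in these windows. Merging peaks that shared at least 1 bp gave 46 regions on the 5 genes, of 70674 regions in the genome.

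The peaks come from 4 m6A-IP libraries of wild-type male C57BL/6 mice, 2 at the age of 2 weeks and 2 at 6 weeks, with no treatment named in the labels. In m6A-IP, fragments of poly(A)+ RNA bound by an antibody to m6A are sequenced, and a peak is a stretch with more sequence tags in the pull-down than in unselected fragments, the input. The labels call the libraries of an age biological replicates, but do not say which animals they came from, and p-values therefore measure the spread between these samples. The other 8 samples of the series were not analysed here. Below, a list of 4 values gives the 2-week replicates 1 and 2 first and the 6-week replicates 1 and 2 after them.

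These factors act at successive steps of the making of a neuron. Sox2 is an HMG-box factor that keeps neural stem cells and progenitors undifferentiated. Sox4 is a SoxC factor that switches on neuronal genes in newly born neurons, and Neurod1 is a basic helix-loop-helix factor needed for the survival and maturation of new granule neurons of the dentate gyrus. Neurod2, of the same family, is kept on in maturing and adult excitatory neurons, and Bcl11b (Ctip2) is a zinc-finger factor of granule neurons and of CA1 pyramidal neurons. m6A is written co-transcriptionally on messenger RNA, most densely around the stop codon, in long internal exons and in the 3′ part of transcripts, and it can be removed by FTO and ALKBH5. In the hippocampus, neurogenesis goes on in the dentate gyrus after birth and declines with age.

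Depth was 23.4, 23.0, 16.1 and 16.5 M tags (mega) in IP and 29.3, 16.8, 15.8 and 11.7 M in input, if the deposited signal was scaled to 10 M tags. The 2-week libraries were the deeper ones, so depth and age cannot be told apart in what was called as a peak. All tag values below are per 10 M tags of their library. Input tags were read only under peaks, and they are the only measure of RNA level used here. In bulk tissue, fewer cells of a type and less RNA per cell cannot be told apart. With 2 libraries against 2, an exact two-sided permutation test cannot give a p under 0.333, so such values are described and no exact test was run. An annotation of mm9 was not used here, and so exons, untranslated regions, cell type markers and further genes of the neurogenic programme were not analysed here. Gene strand and neighbours were taken from RefSeq's GRCm38.p6 annotation, by name only. There Sox2 overlaps the long non-coding RNA Sox2ot and Sox4 overlaps the long non-coding RNA Gm46405. All peaks were listed on 1 strand, so tags of a gene and of an RNA that overlaps it cannot be told apart.

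The 5 genes carried m6A peaks at both ages. The lists held 36, 32, 34 and 28 peaks on them. Of the 46 regions, 12 (26.1%) were called in all 4 libraries, beside 14.4% of all regions in the genome. Bcl11b held 5 of these regions, Neurod2 3, Neurod1 2, and Sox2 and Sox4 1 each. Another 2 regions (4.35%) were called in both 2-week libraries and in no 6-week library, 1 on Sox4 and 1 on Bcl11b, against 6.41% of all regions. None was called in both 6-week libraries and in no 2-week library, where 1.92% of all regions were. A single library called 18 regions (39.1%), against 58.6% of all regions.

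The genes differed in how many of their regions both replicates of an age called. Over the 5 genes, both 2-week libraries called 24 of 46 regions and both 6-week libraries 14, beside 28.4% and 19.3% of all regions. On Sox4 both 2-week libraries called 6 of 12 regions, and both 6-week libraries called 1. On Neurod1 the counts were 3 and 2 of 8, on Neurod2 5 and 3 of 7, and on Bcl11b 8 and 5 of 15. On Sox2, both 2-week libraries called 2 of 4 regions and both 6-week libraries called 3. In 1 of those 3, region 4, the 6-week peaks did not overlap each other. They were joined only through the peak of 2-week replicate 1, so Sox2 gives no clear direction here. The replicates of an age disagreed on many of these regions, and the 6-week Sox4 peaks rested on few tags, as given below.

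**Figure D1:**
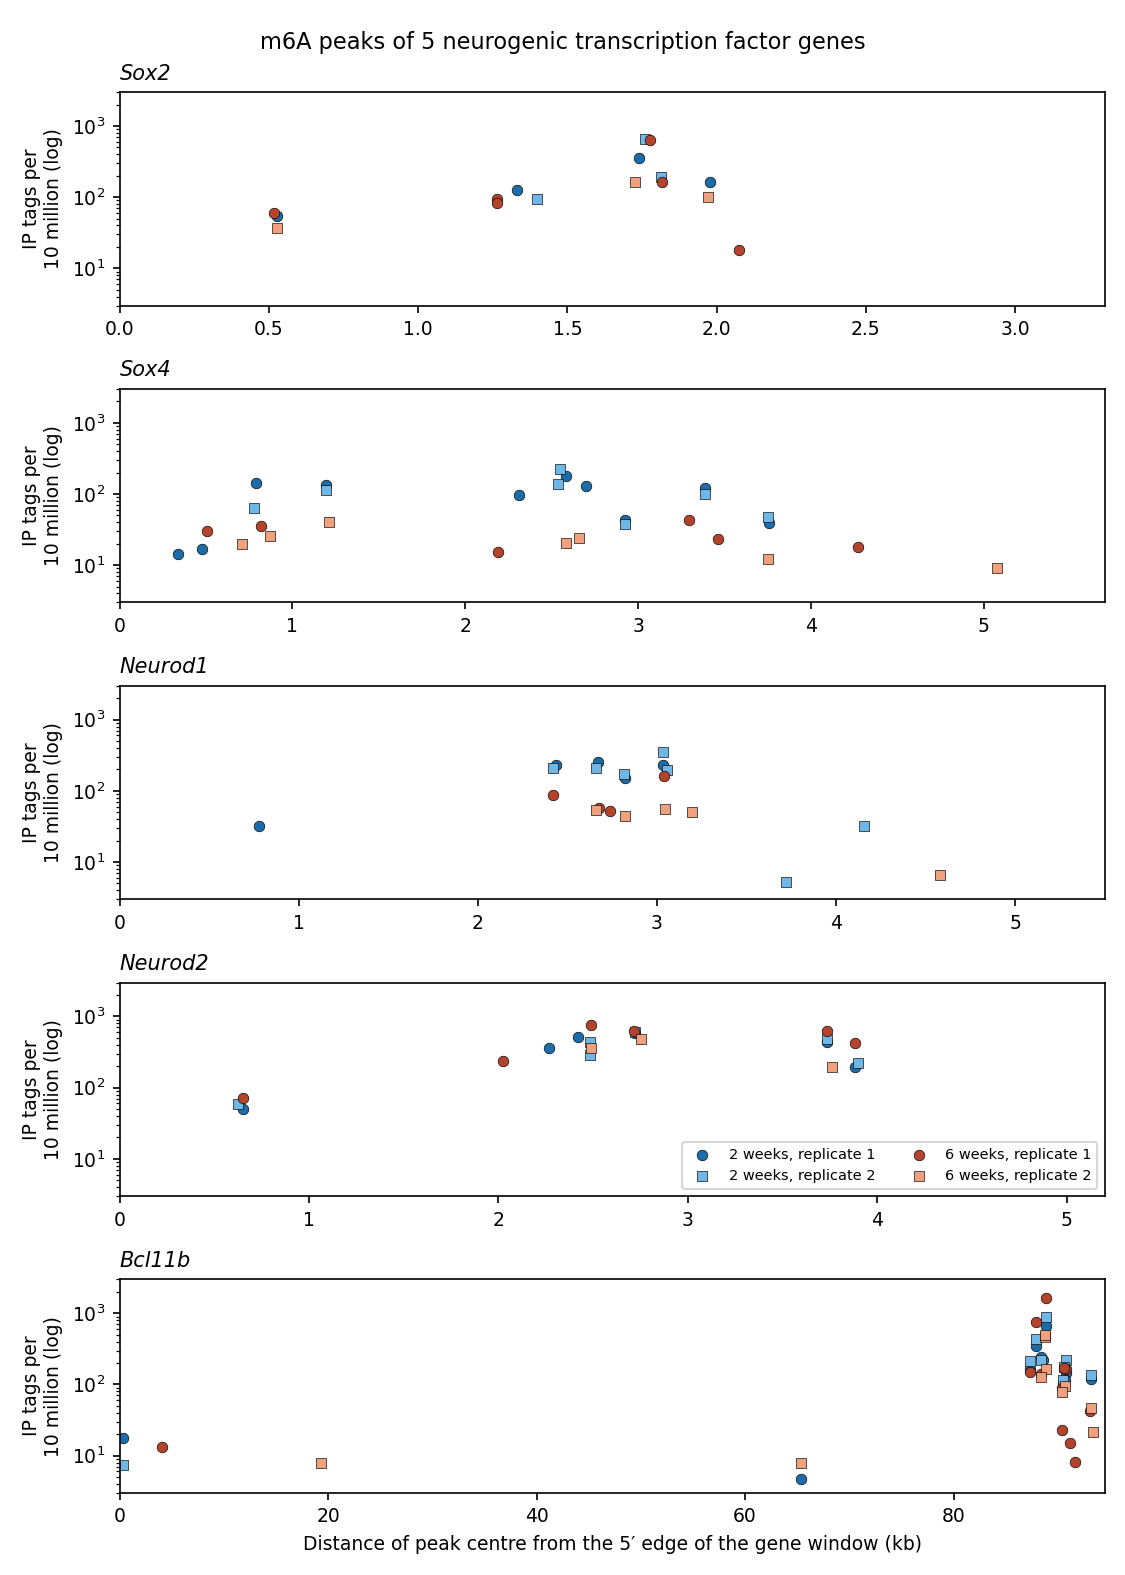
Each point is 1 deposited peak, placed by its distance in kb from the 5′ edge of the gene's window (horizontal axis) and by its IP tags per 10 M (vertical axis, log scale), with 1 colour and marker for each of the 4 libraries. The Sox4 peaks of the 6-week libraries lie below most 2-week peaks along the window, and the strong Bcl11b peaks gather near its 3′ edge.

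Position along the gene was read from the strand given by RefSeq, with regions numbered from the 5′ end. Bcl11b, by far the longest window at 94.5 kb, had 11 of its 15 regions in one stretch, with centres 1106 to 7181 bp from the 3′ edge of the window. The other 4 Bcl11b regions, spread over the rest of the window, held 4.69 to 17.5 IP tags in any library, and within the stretch regions 12, 13 and 15, each called in a single 6-week library, were as low, at 14.9, 8.06 and 21.8. The other 8 regions of the stretch held 42.8 to 1650. Sox4, in a window of 5.7 kb, had 12 regions spread along the gene, and Neurod1 and Neurod2 had 8 and 7 in windows of 5.5 and 5.2 kb. Sox2 had 4 regions in 3.3 kb, and its nearest peak outside the window lay 193 bp below the window's start.

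Sox2, the progenitor factor, had its strongest peak in the same region in every library, region 3 at chr3:34550177-34550368. This region held 355, 837, 810 and 163 IP tags over 40.6, 106, 34.8 and 26.5 input tags, where 2-week replicate 2 and 6-week replicate 1 each add 2 overlapping peaks. Counting only the strongest peak of each library, it held 355, 646, 645 and 163 IP tags over 40.6, 63.0, 10.1 and 26.5 input tags. The input was lower in both 6-week libraries than in both 2-week libraries, and the IP values overlapped between the ages, with the 2 replicates of each age far apart. One 100-bp peak of 6-week replicate 1 in this region held 1040 IP tags over 16 input tags, counted before scaling, which the authors' deposited table lists as 63.6-fold over control. Averaged over all Sox2 peaks of a library, the input was 27.7, 45.2, 15.4 and 21.1 tags per peak. The age means were 36.4 ± 12.3 and 18.2 ± 3.99 (SD, n = 2), with no overlap between the ages. IP tags per peak were 175, 310, 178 and 100, and the ages overlapped.

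Sox4 showed the lowest 6-week values of the 5 genes, in both fractions. Its input was 20.5, 26.2, 5.91 and 5.12 tags per peak, and both 6-week libraries lay far below both 2-week libraries. The age means were 23.4 ± 4.05 at 2 weeks and 5.52 ± 0.558 at 6 weeks (SD, n = 2), 4.23-fold lower at 6 weeks. IP tags per peak were 91.4, 103, 27.6 and 21.7, again without overlap, and 3.95-fold lower at 6 weeks. Summed over the gene's peaks, the IP tags were 914, 724, 166 and 152 over 10, 7, 6 and 7 peaks that covered 1000, 608, 600 and 676 bp, and the input tags were 205, 184, 35.5 and 35.9. The sums were thus 5.16-fold lower for IP and 5.45-fold lower for input at 6 weeks, and the covered length was by far the longest in 2-week replicate 1.

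The IP and the input of Sox4 were lower by much the same factor, so their ratio was similar in the 4 libraries. Over all its peaks the IP to input ratio was 4.46, 3.95, 4.67 and 4.24, and the 6-week values overlapped the 2-week ones. The ratio is taken over called peaks only, which had to stand at least 3-fold over control, and that floor keeps it from going low. The 6-week Sox4 peaks rested on few tags, 25 to 70 IP tags before scaling in replicate 1 and 15 to 66 in replicate 2, against 34 to 419 and 87 to 516 in the 2-week libraries. One 6-week peak, in region 12, had no input tag at all.

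The strongest Sox4 region at 2 weeks was region 7 (chr13:29043253-29043512). It held 307 and 362 IP tags in the 2-week libraries, was not called in 6-week replicate 1 and held 44.8 in 6-week replicate 2. Each of these values adds 2 peaks, which overlapped in 2-week replicate 2. The strongest single peaks held 179, 225 and 24.2 IP tags. Region 3 (chr13:29045082-29045339), toward the 5′ end, was the only Sox4 region called in all 4 libraries. It held 141, 62.7, 35.3 and 46.0 IP tags over 29.3, 16.6, 6.97 and 9.39 input tags. The values of 6-week replicate 2 add 2 peaks that did not overlap, where the other lists had 1. The stronger of these peaks held fewer tags per 10 M than the peak of 6-week replicate 1, in both fractions. Both fractions were lower in both 6-week libraries, and the ratio of IP to input stayed between 3.77 and 5.07.

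Neurod1, the factor of new granule neurons, had lower values at 6 weeks too, by a smaller factor in the input. Its input was 26.3, 22.7, 14.4 and 9.90 tags per peak. The age means were 24.5 ± 2.49 and 12.2 ± 3.19 (SD, n = 2), 2.02-fold lower at 6 weeks. IP tags per peak were 179, 167, 90.2 and 42.3, which is 2.62-fold lower at 6 weeks. Neither fraction overlapped between the ages, and the 6-week replicates themselves differed more in IP than the 2-week ones. The IP to input ratio over the gene was 6.83, 7.36, 6.26 and 4.27, with both 6-week libraries below both 2-week libraries and with 6-week replicate 2 lowest. How many other loci were so separated in this ratio was not computed, and the 3-fold floor of called peaks applies here too.

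Most Neurod1 tags lay in 3 neighbouring regions, 2 of them called in all 4 libraries. Region 3 (chr2:79294626-79294888) held 404, 377, 110 and 98.1 IP tags over 46.1, 48.1, 15.8 and 23.1 input tags. In this region each age's replicates lay close together in IP and the ages lay far apart. Region 4 (chr2:79294391-79294516) held 231, 550, 163 and 56.3 IP tags over 25.2, 52.3, 19.0 and 16.2 input tags. Here the replicates of both ages differed in IP, and 2-week replicate 2 had 2 overlapping peaks where the other lists had 1. Counting only the strongest peak of each library, region 4 held 231, 356, 163 and 56.3 IP tags over 25.2, 31.5, 19.0 and 16.2 input tags. Region 2 (chr2:79295016-79295131), next to region 3 on its 5′ side, held 230, 207 and 88.1 IP tags over 51.9, 52.9 and 22.8 input tags in the first 3 libraries and was not called in 6-week replicate 2. The other 5 Neurod1 regions were each called in a single library.

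Neurod2, the family member kept on in mature neurons, had the highest input level of the 5 genes in every library. Its input was 59.0, 68.2, 69.7 and 86.2 tags per peak, with age means of 63.6 ± 6.51 and 78.0 ± 11.7 (SD, n = 2). Both 6-week libraries lay above both 2-week libraries in this mean over called peaks, but over the regions called in all 4 libraries the input was 69.9, 85.7, 85.5 and 86.2 tags per peak and the ages overlapped. IP tags per peak were 357, 351, 457 and 345, and the ages overlapped. The number of called peaks was 6, 6, 6 and 3, so the last library's value per peak comes from the 3 regions called in all libraries. Summed over the peaks, the input had a log2 ratio of 6 to 2 weeks of -0.17 per 10 M tags and of 0.34 with TMM, a scaling that sets the typical shared region to no change.

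Unlike for Neurod1 and Sox4, the input per peak of Neurod2 was not lower at 6 weeks. Region 5 (chr11:98188696-98188834) held 581, 608, 629 and 482 IP tags over 86.0, 139, 118 and 146 input tags, and both fractions overlapped between the ages. Region 4 (chr11:98188961-98189128) held 521, 735, 753 and 359 IP tags, where the value of 2-week replicate 2 adds 2 peaks listed at the same start. The strongest single peak held 521, 444, 753 and 359. Region 6 (chr11:98187692-98187818) held 434, 483, 628 and 193. In all 3 regions the lowest IP value was that of 6-week replicate 2. The IP to input ratio over the gene was 6.05, 5.14, 6.56 and 3.999.

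Bcl11b differed little between the ages in level. Its input was 31.0, 36.4, 25.9 and 28.3 tags per peak, with age means of 33.7 ± 3.77 and 27.1 ± 1.69 (SD, n = 2). The 6-week libraries lay below the 2-week ones in these values, but scaling by TMM turned the direction of the summed input (log2 ratio of 6 to 2 weeks 0.34 in place of -0.17). IP tags per peak were 196, 267, 268 and 150, with overlap. The IP to input ratio over the gene was 6.31, 7.33, 10.3 and 5.32, and the 6-week replicates lay on either side of the 2-week ones.

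Single Bcl11b regions went in different directions. Region 9 (chr12:109153570-109153744), the strongest of the gene in all 4 libraries, held 665, 875, 1650 and 1119 IP tags over 69.3, 64.8, 58.9 and 207 input tags. 6-week replicate 2 listed 3 overlapping peaks here where the other lists had 1, and its 2 values are their sums. The strongest single peak held 665, 875, 1650 and 488 IP tags, so the sums were higher in both 6-week libraries while the single peaks overlapped between the ages. Region 14 (chr12:109149312-109149434), nearest the 3′ end among those called in all libraries, held 121, 135, 42.8 and 47.2 IP tags over 10.2, 11.9, 8.87 and 12.0 input tags. Its IP values did not overlap between the ages while its input values did, so its IP to input ratio was 11.8, 11.4, 4.82 and 3.95. The remaining regions called in all libraries, 7, 10 and 11, held 78.1 to 392 IP tags.

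**Figure D2:**
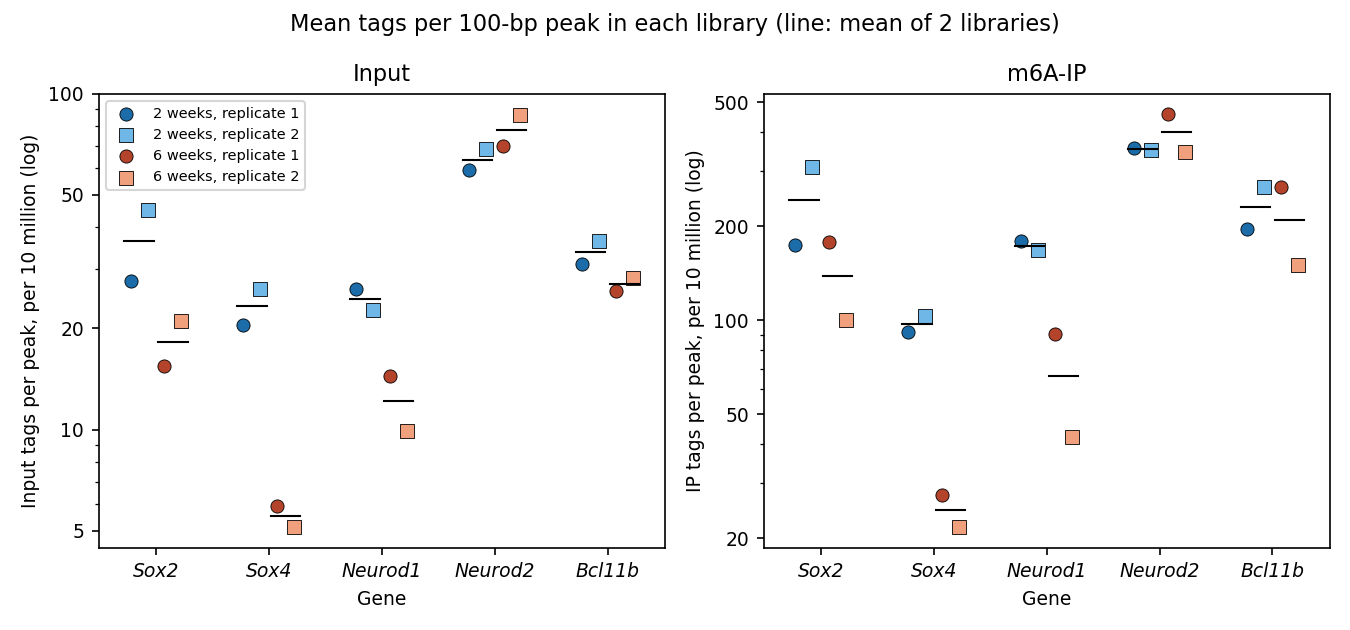
Input tags (left) and m6A-IP tags (right) per peak and per 10 M tags, log scale, for each gene and library, with a line at the mean of the 2 libraries of an age. Sox4 lies at 20.5 and 26.2 input tags at 2 weeks and at 5.91 and 5.12 at 6 weeks, and Neurod2 has the highest input of the 5 genes in every library.

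These levels were set beside other loci, because most loci also had fewer input tags per peak at 6 weeks on this scale. Loci were runs of regions less than 10 kb apart, and 2449 of them had at least 3 peaks in every list. The values of the 5 genes were taken over their windows, so the units are not fully alike. Other peaks lay 193, 3889 and 7374 bp outside the windows of Sox2, Sox4 and Neurod2. The Bcl11b window spans gaps of more than 10 kb between regions. Both 6-week libraries lay below both 2-week libraries in input per peak at 51.7% of these loci and in IP per peak at 36.7%, so the absence of overlap is not by itself particular to any of the 5 genes. The size of the difference in this mean over called peaks set Sox4 apart from most loci, but the peaks averaged differed between the lists. In Sox4 region 3, called in all 4 lists, the age means were 23.0 and 8.18 input tags and 102 and 40.7 IP tags. Its fitted change stood at percentile 4.89 of the 10203 shared regions in input and 9.12 in IP. The median ratio of 6 to 2 weeks was 0.719 for input, and 20 of the 2449 loci (0.817%) were as low as Sox4. For IP per peak the median was 0.823, and 11 loci (0.449%) were as low as Sox4.

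Neurod1 stood lower among the loci in IP than in input, with 61 loci (2.49%) as low in IP and 437 (17.8%) as low in input. Sox2 was matched by 450 loci (18.4%) in input and by 17.6% in IP. Bcl11b, with 61.4% of loci as low in input, lay near the middle, and Neurod2, with 89.7%, near the upper end. These shares describe where each gene stood and are no test of the genes, which were chosen with earlier results of these data known.

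Whether single regions differed between the ages beyond replicate spread was tested in 3 measures, input, IP and the IP to input ratio (enrichment), with edgeR's quasi-likelihood test across the genome, TMM scaling and Benjamini-Hochberg adjustment at 0.05. Among the 4577 regions where every list had a single peak, 2.18% were called for input, 1.09% for IP and 0.0% for enrichment. The 5 genes had 4 of these regions, Bcl11b regions 7 and 14 and Neurod2 regions 5 and 6, and none was called in any measure. With all 10203 regions called in the 4 lists, 0.48% were called for input, 0.0% for IP and 0.0% for enrichment, and none of the 12 regions of the 5 genes was called. An unadjusted p under 0.05 was reached by 1361 regions (13.3%) for input, 1282 (12.6%) for IP and 318 (3.12%) for enrichment, and by 3, 4 and 2 of the 12 regions on the 5 genes. DESeq2 on the same regions, of which 792 got no adjusted p in IP, called 50 higher and 36 lower in IP. It called none for enrichment, and none of the 12 in either measure.

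The largest input difference among the 12 regions was that of Sox4 region 3, with a log2 change from 2 to 6 weeks of -1.53 ± 0.49 (SE, edgeR, adjusted p = 0.151). With total tags in place of TMM it was -2.02 and passed the test (adjusted p = 0.00946), as did 6.44% of the 10203 regions, with the median region at -0.56. Its IP change was -0.88 ± 0.56 (adjusted p = 0.528), and -1.35 ± 0.47 when only the strongest peak of each library was used. Much of both changes rested on 2-week replicate 1, without which the IP change was -0.075 and the input change -0.91. Without 2-week replicate 2 they were -1.39 and -1.89. Its enrichment change was 0.09 ± 0.51.

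Neurod1 regions 3 and 4 had the lowest IP changes of the 12, -1.50 ± 0.43 (adjusted p = 0.247) and -1.52 ± 0.51 (adjusted p = 0.278), by edgeR. With the strongest peak of each library they were -1.61 ± 0.38 (adjusted p = 0.0945) and -1.11 ± 0.40 (adjusted p = 0.212). The input change of region 3 was -0.76 ± 0.41 (adjusted p = 0.418) and that of region 4 was -0.02 ± 0.41. The enrichment changes were -0.74 ± 0.44 and -0.92 ± 0.45, and neither passed after adjustment.

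Bcl11b region 14 had the lowest enrichment change, -1.51 ± 0.50, with an unadjusted p of 0.00464 and an adjusted p of 0.999 by edgeR among the 4577 regions. Its IP change was -1.04 ± 0.40 (adjusted p = 0.198) and its input change 0.42 ± 0.49 (adjusted p = 0.729). Without 6-week replicate 2 the IP change was -1.47 and passed the test, in a fit where 15.9% of the 4577 regions passed and where the lone 6-week library is assumed to vary like the 2-week ones. Bcl11b region 9 had the highest IP change of the 12, 1.23 ± 0.44 (adjusted p = 0.295), which was 0.75 ± 0.46 with the strongest peak of each library.

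Neurod2 regions 5 and 4 had the highest input changes, 0.78 ± 0.34 (edgeR, adjusted p = 0.305) and 0.73 ± 0.33 (adjusted p = 0.328), in the fit of 10203 regions. With single-peak regions only, region 5 was 0.78 ± 0.32 (adjusted p = 0.208). Sox2 region 3 stood at -0.61 ± 0.38 in input (adjusted p = 0.517), -0.97 ± 0.42 with the strongest peak of each library, and at -0.04 ± 0.57 in IP. Its enrichment change was 0.48 ± 0.45, but -0.28 without 6-week replicate 1 and 1.12 without 6-week replicate 2, so its direction rested on single libraries.

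**Figure D3:**
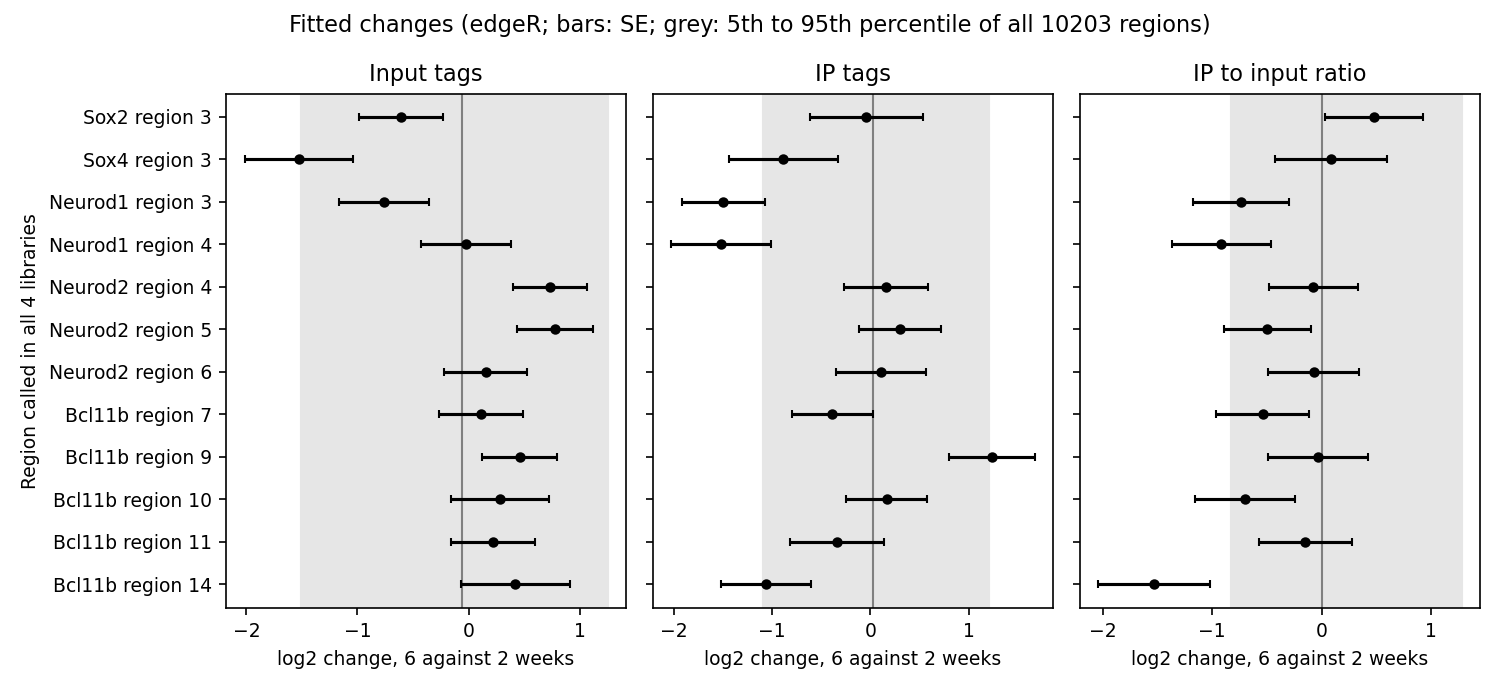
Log2 change from 2 to 6 weeks with its standard error for the 12 regions of the 5 genes called in all 4 libraries, in input, IP and enrichment, from the fit of 10203 regions. None of the 12 passed the threshold, and Sox4 region 3 is lowest in input, the Neurod1 regions lowest in IP and Bcl11b region 14 lowest in enrichment.

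The extremes of the 12 regions reached past the 5th to 95th percentiles of all 10203 regions. An extreme of 12 regions readily lies past a percentile of single regions, so this describes the values and is no test. The lowest of the 12 was -1.53 in input (5th percentile -1.51), -1.52 in IP (-1.09) and -1.53 in enrichment (-0.82), and the highest in IP was 1.23 (95th percentile 1.21). Their median log2 change was 0.19 for input, -0.19 for IP and -0.32 for enrichment, beside -0.06, 0.03 and 0.00 for all 10203 regions. Below 0 were 4 of 12 in input, 7 in IP and 10 in enrichment. The share of all regions below 0 was not computed, and regions of the same gene are not independent. In enrichment, 6 of the 12 regions turned in direction under at least 1 alternative. In tags per 10 M, both 6-week libraries lay below both 2-week libraries in 6 of the 12 regions for input and in 5 for IP, beside 43.0% and 38.3% of the 10203 regions. Those 6 were Sox2 region 3, Sox4 region 3, Neurod1 regions 3 and 4 and Bcl11b regions 7 and 11. Both 6-week libraries lay above both 2-week libraries in 1 of the 12 regions for IP and in none for input, beside 7.41% of the 10203 regions in either fraction. That region was Bcl11b region 9, by the sum over the 3 overlapping peaks of 6-week replicate 2 and not by its strongest peak.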

How the data were processed

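The m6A peak lists of 4 libraries of mouse hippocampus were used. Per the submitters' processing notes, HOMER, Cufflinks 2.2.1, TopHat2 (2.0.13, 2.1.1) and Bowtie2 2.2.3 were used with the build mm9, in no stated role; per the file headers, the lists are HOMER's, 1 per IP library. The sources used here do not give the caller's options or which input served as control. The authors deposited IP tags as whole counts in 1 list and as a scaled signal in the others, and control tags as a scaled or plain signal. The deposited score, p-value, fraction (focus ratio) and fold ratio of each peak are the authors' values, used only to describe or filter peaks. Every deposited fold was at least 3.

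Tags were recovered by dividing scaled values by the value of 1 tag, which gave whole numbers within 0.2 tag for 100% of IP and control values. A control value of 0.5 tag stood for none and was set to 0. Nearly all peaks were 100 bp wide. Peaks sharing at least 1 bp were merged; coordinates are as the files give them. Tags summed over a gene's peaks are given with peak number and covered length. Where a library had several peaks in a region their tags were added, and the input fit had an offset for their summed width, while the IP and enrichment fits had none. The tests used edgeR 4.0.16 (quasi-likelihood, TMM, Benjamini-Hochberg), with the standard error taken as the log2 change over the root of F. DESeq2 1.42.0, limma 3.58.1, R 4.3.3, Python 3.11.15, pandas 2.3.3, numpy 2.4.6 and matplotlib 3.10.9 were also used. The fits were also run on simulated data, with less spread than was fitted here for input and IP and without the width offset. That run therefore does not show how well the fits do on these data. Replicates differed by more than sampling noise, with a chi-square, divided by its degrees of freedom, of 24.4 and 28.5 for IP and 5.36 and 4.04 for input at 2 and 6 weeks, so all were kept. Every region of the 5 genes called in all libraries, or holding most IP tags of its gene, was described singly or by a range; the rest are given by counts. The members and lists were chosen with earlier results of these data known.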

Additional observations from a re-analysis of the deposited data

How the results depend on the processing

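None of the 4 regions of the 5 genes in the 4577-region table was called in any alternative, except Bcl11b region 14 in IP, with 1 call without 6-week replicate 2 (0 to 1 over the libraries left out). Genome-wide counts of input calls, 51 higher and 49 lower, turned to 21 and 370 under total tags, to 22 and 13 under DESeq2, to 30 and 25 with a filter of 10 tags, to 28 and 21 with all regions, and ranged over 0 to 85 and 0 to 72 as each library was left out. IP calls, 39 and 11, were 0 and 0 under total tags, 60 and 45 under DESeq2, 0 and 0 with all regions or (chosen after seeing the data) with the strongest peak of each library, and 3 to 402 and 1 to 325 with a library left out. Enrichment calls, 0, were 0 to 2 higher with a library left out, and 127 regions had an unadjusted p under 0.05. DESeq2 gave no adjusted p in input for 3106 of the 4577 regions, Bcl11b region 14 among them, so its input calls cover fewer regions. With the replicate number as a block, input calls were 50 and 49, IP calls 112 and 78, and enrichment calls 0. Same-numbered replicates did not deviate together (correlation 0.0116 for IP and 0.0348 for input). No pairing by number was thus seen, but shared handling that shifts few regions would not show in these correlations.

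Regions called in all 4 libraries, 12, were 0 at 8-fold or more over control and 12 to 19 with a library left out. Those called at 2 weeks only, 2, were 1 at 8-fold, 1 when merged within 200 bp and 5 to 9 with a library left out. Those called at 6 weeks only, 0, were 0 to 6. With a library left out, each pattern asks for fewer libraries, so those counts follow a looser rule and can rise for that reason. Log2 ratios of summed tags, 6 to 2 weeks, moved as follows. For input, with TMM they were -0.15 for Sox2 (main -0.66), -1.93 for Sox4 (-2.45), 0.34 for Bcl11b (-0.17), -0.91 for Neurod1 (-1.44) and 0.34 for Neurod2 (-0.17). With regions called in all libraries they were -1.26 for Sox2, -1.49 for Sox4, 0.29 for Bcl11b and -1.21 for Neurod1. At 8-fold or more they were -3.35, 0.31, -0.82, -2.40 and 0.41 for Sox2, Sox4, Bcl11b, Neurod1 and Neurod2, where few peaks were left. A library with no such peak counted as 0 tags, in input and in IP. That was 6-week replicate 2 for Sox2, Neurod1 and Neurod2, and 2-week replicate 2 for Sox4. Per peak, chosen after seeing the data, the input ratios were -2.08 for Sox4, -0.32 for Bcl11b and -1.01 for Neurod1. For IP, Sox4 (-2.37) was -1.95 with TMM, -1.32 with regions called in all libraries, 0.97 at 8-fold and -1.98 per peak, and Neurod1 (-1.85) was -2.53 at 8-fold. Leaving out a library, also chosen after seeing the data, kept Sox4 between -2.52 and -2.36 in input and between -2.52 and -2.19 in IP. Of the 12 regions called in all libraries, 7 turned in direction in input, 6 in IP and 6 in enrichment under at least 1 alternative of the 10203-region fit, 6, 4 and 3 of them with total tags and 2, 4 and 6 with a library left out. Among them were Bcl11b region 14 in input with total tags (-0.092), Bcl11b region 9 in enrichment (-0.92 to 0.94 with a library left out) and Sox2 region 3 in IP, which ranged from -1.12 to 0.60 with a library left out and was above 0 without 2-week replicate 2 (0.60) or 6-week replicate 2 (0.56). The causes of these moves were not tested, beyond the fewer regions or libraries that some alternatives hold. At 6 weeks the small tag numbers of Sox4 limit what can be said of its enrichment.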

Other observations

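Of the 130 peaks on the 5 genes, 11 overlapped the peak before them in the same list and 2 of these repeated its start. The repeats had other tag numbers than the first peak. On Sox2 in 6-week replicate 1 they held 154 and 132 IP tags over 39 and 25 input tags, and on Neurod2 in 2-week replicate 2 they held 1020 and 668 IP tags over 137 and 126 input tags, all before scaling. How the caller came to give different tags at the same start was not tested.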
